A study of Mus musculus with 2 samples.

Results

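The glutathione and thioredoxin antioxidant genes were taken from all gene spots on both arrays by the gene symbols printed in the scanner tables. They comprise glutathione peroxidases, glutathione S-transferases, peroxiredoxins, thioredoxins with their reductases and related thioredoxin-domain proteins, glutaredoxins, superoxide dismutases, catalase, the enzymes that make and reduce glutathione, haem oxygenases and quinone oxidoreductases. This gave 140 of 41534 gene spots, 113 of 41174 probes and 72 of 28655 genes, of which 69 (of 22811 genes in all) were bright enough to be compared. Gpx6, Nme8 and Nxnl1 were not well above background in the same RNA on both arrays and were not compared. Of the 69, 68 were well above background in both RNAs, and 0 sat on a saturated probe.

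The aortas came from apoE-/- mice 16 weeks (4 months) of age, a strain without apolipoprotein E in which atherosclerotic lesions form. The atherosclerosis-prone segment (arch: the root, the arch itself and 2 mm of adjoining thoracic aorta) was set against the atherosclerosis-resistant central thoracic aorta (thoracic: the following 6 mm). Vessels had been perfused with triton X-100 to strip the endothelium, and RNA from 6 mice (3 males and 3 females) was pooled for each segment. Both pools were hybridised together on 2 arrays with Cy3 and Cy5 exchanged. Both pools share the genotype, the age and the perfusion, and no wild-type pool was analysed here, so the values describe position along an apoE-/- vessel and not the effect of the deletion.

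Each segment is 1 pool, so spread between mice was not measured and no p-value is given. Every ± gives the SD of the log2 ratio over the 2 arrays (n = 2, a technical repeat of 1 comparison), and differences were called by size. A member is called higher or lower in the arch where its log2 ratio of arch over thoracic reached 1.2-fold (0.26 on the log2 scale) in the same direction on each array. A 1.5-fold rule (mean of 1.5-fold, each array 1.2-fold) and a 2-fold rule (mean of 2-fold, each array 1.5-fold) were applied as well. Signals are normalized intensities in arbitrary units and are compared only between pools for the same probe.

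These enzymes remove reactive oxygen and its products. Superoxide dismutases turn superoxide into hydrogen peroxide, which catalase, glutathione peroxidases and peroxiredoxins break down. The peroxidases and peroxiredoxins, but not catalase, use glutathione or thioredoxin as electron donors. Glutathione S-transferases join glutathione to reactive aldehydes and other electrophiles, including products of lipid peroxidation, and many of these genes are induced by the transcription factor NRF2 through the antioxidant response element. In arteries, smooth muscle cells secrete extracellular superoxide dismutase into the wall, and oxidised lipids accumulate in atherosclerotic lesions.

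A few members were higher in the arch pool, led by glutathione S-transferases, and most hardly differed. By the 1.2-fold rule 10 of 69 members (14.5%) were higher in the arch, against 5.00% of all genes compared, and 1 (1.45%) was lower, against 2.75%. The higher ones were Gsta3, Gsta1, Gstm3, Gstm1, Gstp1, Mgst1, Gpx3, Gpx1, Sod3 and Hmox1, and the lower one was Nqo1. By the 1.5-fold rule 4 members were higher (5.80%, against 1.40% of all genes), namely Gsta3, Gpx3, Gstm3 and Gsta1, and 0 were lower (0.456% of all genes). The 2-fold rule was passed by Gsta3 alone (1.45%, against 0.473% of all genes) and by 0 members in the lower direction (0.145% of all genes).

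The list as a whole was centred near 0. Its median log2 ratio was 0.02, against -0.01 over all genes, and 37 of 69 members (53.6%) lay above 0, against 47.3% of all genes. The 58 members that did not pass the 1.2-fold rule ranged from -0.32 to 0.25 with a median of -0.01. The median SD between arrays was 0.06 both in the members and over all genes. Signals of the pools did not overlap, with every arch value above every thoracic value, for 27 members (39.1%, against 25.3% of all genes), and lay the other way for 18 (26.1%, against 22.6%). With the 1.2-fold rule applied to the dyes in place of the segments, 0 members passed, against 64 of all genes (0.281%). The split of 10 higher and 1 lower depended on the scaling. It was 9 and 3 without the offset, where 7.36% of all genes were higher and 4.80% lower. In the deposited log ratios it was 10 and 4, where 8.04% of all genes were higher and 5.37% lower. Without loess normalization it was 3 and 0, where 2.59% of all genes were higher and 1.06% lower. The lower members were thus near the share of all genes in these settings.

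**Figure D1:**
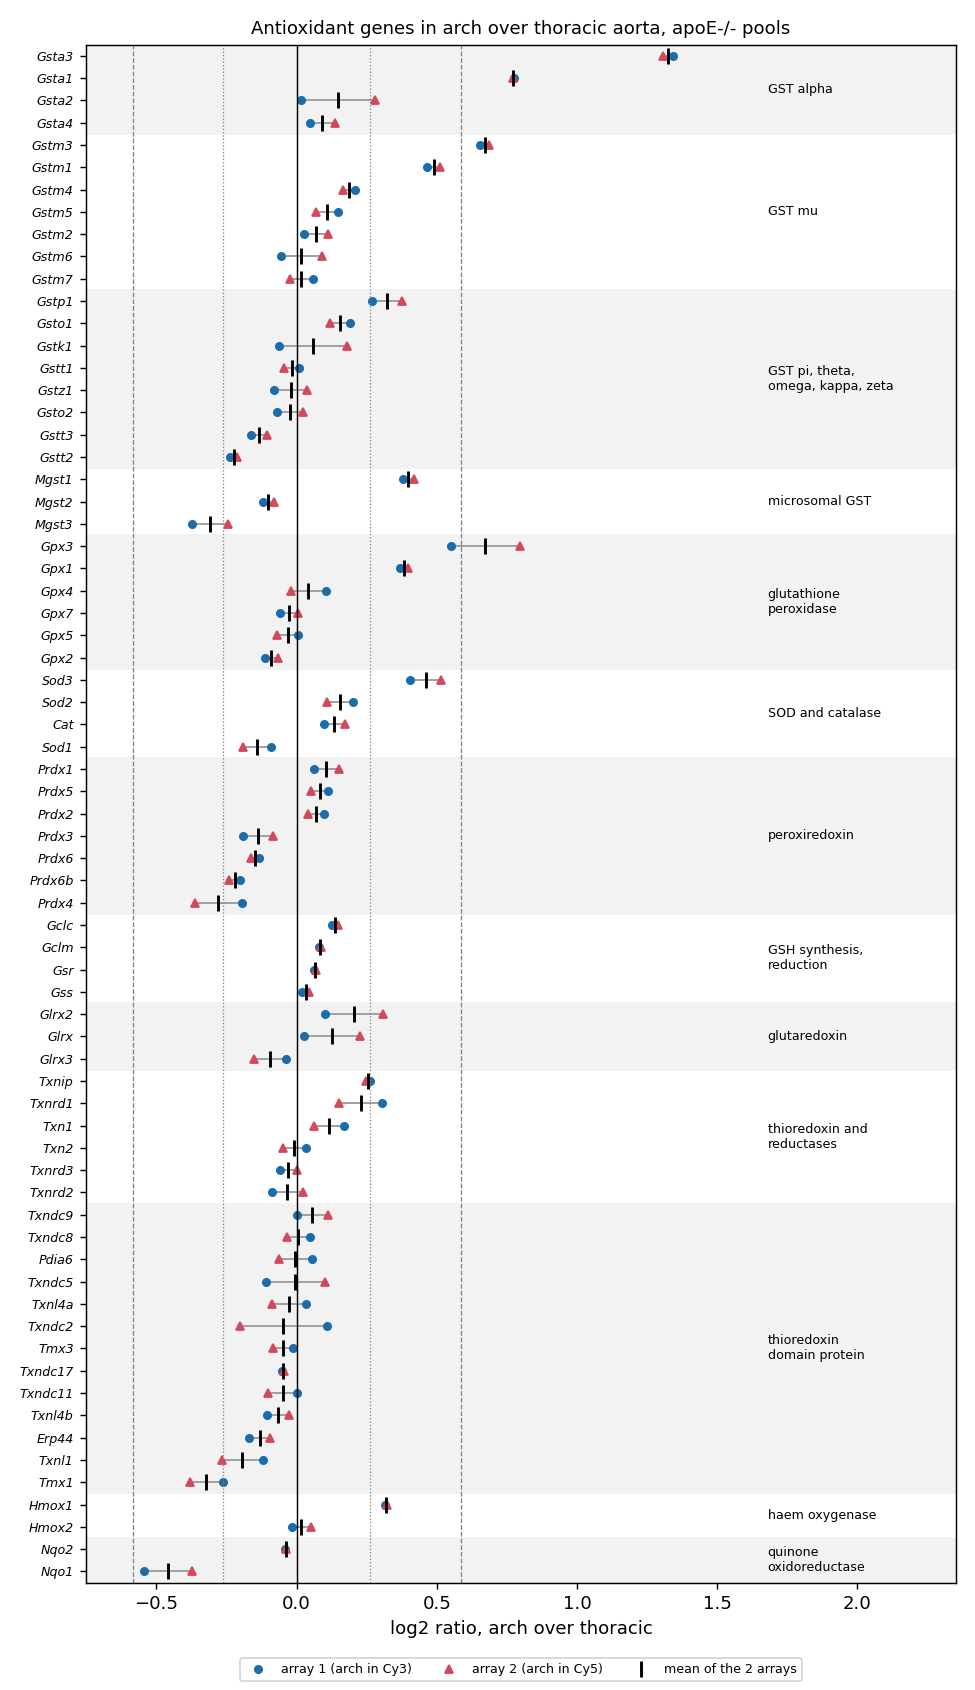
Log2 ratio of arch over thoracic (horizontal axis) for each of the 69 antioxidant genes compared, grouped by family, with circles for array 1, triangles for array 2 and a black bar for the mean of the 2 arrays; dotted lines mark 1.2-fold and dashed lines 1.5-fold. Gsta3 stands farthest to the right at 1.32, Gsta1, Gpx3 and Gstm3 follow at 0.77, 0.67 and 0.67, and Nqo1 stands farthest to the left at -0.46.

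Within the alpha class of glutathione S-transferases, Gsta3 and Gsta1 were higher in the arch pool, while Gsta2 and Gsta4 passed no rule. Gsta3, which in mice conjugates electrophiles such as the epoxide of aflatoxin, had signals of 1703 and 1672 in the arch pool on arrays 1 and 2, against 671 and 677 in the thoracic pool. Both arch values were far above both thoracic values, a 2.50-fold difference (log2 ratio 1.32 ± 0.03). A further Gsta3 probe, looked up after these values were seen, gave 1.17. Gsta1 had signals of 240 and 242 in the arch pool, against 140 and 142 in the thoracic pool, so the pools were again apart on both arrays (1.71-fold, 0.77 ± 0.00). Its further probe, which was dimmer, gave only 0.14, so the probes of Gsta1 disagree. Gsta2, named after its value was seen, had 103 and 89.8 in the arch pool, against 102 and 73.9 in the thoracic pool, and these values overlap (0.15 ± 0.19). The ratio of this dim probe was 0.38 without the offset and 0.46 in the deposited log ratios. Gsta4, known for conjugating the lipid peroxidation product 4-hydroxynonenal and likewise named after its value was seen, had a ratio of 0.09 ± 0.06. Alpha-class transcripts resemble each other, and whether the probes of Gsta1 and Gsta2 also bind the other's transcript was not tested, so their separate values are uncertain.

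The start-site regions of the alpha-class genes are shown because Gsta3 leads the list and because the brighter Gsta1 probe differs from the Gsta2 probe by over 1.5-fold, which the further Gsta1 probe does not. They run from 250 bases before to 50 bases after the annotated start, 5′ to 3′ on the gene's strand, from RefSeq (GRCm38.p6). Capitals mark the letters TGACNNNGC, the core of the antioxidant response element, searched on both strands. Gsta3 lies at chr1:21240335-21240634 on the plus strand, Gsta1 at chr9:78230419-78230718 on the plus strand and Gsta2 at chr9:78347096-78347395 on the minus strand.
Gsta3: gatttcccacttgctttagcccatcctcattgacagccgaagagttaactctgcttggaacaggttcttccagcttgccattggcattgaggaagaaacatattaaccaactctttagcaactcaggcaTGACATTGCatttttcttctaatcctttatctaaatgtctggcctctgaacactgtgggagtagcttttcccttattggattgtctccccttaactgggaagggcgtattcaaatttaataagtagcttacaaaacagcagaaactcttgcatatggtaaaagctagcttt
Gsta1: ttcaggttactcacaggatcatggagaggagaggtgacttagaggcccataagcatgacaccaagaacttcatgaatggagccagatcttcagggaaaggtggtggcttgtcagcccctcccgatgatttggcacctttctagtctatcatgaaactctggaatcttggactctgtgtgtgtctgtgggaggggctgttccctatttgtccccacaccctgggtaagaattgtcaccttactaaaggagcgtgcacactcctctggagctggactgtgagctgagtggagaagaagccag
Gsta2: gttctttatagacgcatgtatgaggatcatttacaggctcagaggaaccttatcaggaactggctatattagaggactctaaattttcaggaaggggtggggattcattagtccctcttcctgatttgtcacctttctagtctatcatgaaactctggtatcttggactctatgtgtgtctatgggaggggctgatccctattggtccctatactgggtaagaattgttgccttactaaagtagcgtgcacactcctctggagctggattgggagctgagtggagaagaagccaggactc
Gsta3 held 1 match, TGACATTGC, whose first base lies at -121 from the start. The Gsta1 and Gsta2 windows held none, and were identical at 231 of 290 aligned bases (79.7%). Of the 72 member genes, 61 had a window in the table, and 12 of these (19.7%) held the core, against 14.0% of all 27025 genes with a window.

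In the mu class 2 of 7 members passed 1.2-fold, both as higher in the arch. Over all genes 5.00% were higher and 2.75% lower. Gstm3 had signals of 12944 and 13120 in the arch pool, against 8224 and 8152 in the thoracic pool (1.59-fold, 0.67 ± 0.02). Gstm1, an abundant mu-class enzyme of the liver and other tissues, had 30337 and 29955 in the arch pool, against 21962 and 21012 in the thoracic pool (1.40-fold, 0.49 ± 0.03). For both genes each arch value exceeded each thoracic value. The other 5 mu-class genes passed no rule and ranged from 0.02 to 0.19. The means of all 7 thus lay above 0, against 47.3% of all genes, except that Gstm2 fell below 0 without loess. Gstm6 and Gstm7, named after their values were seen, had opposite signs on the 2 arrays and overlapping pools (0.02 ± 0.10 and 0.02 ± 0.06). Mu-class genes are also close copies of each other, and cross-binding between their probes was not tested.

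Among the remaining transferases, Gstp1 and Mgst1 were higher in the arch. Gstp1, the pi-class enzyme, had signals of 9776 and 10054 in the arch pool, against 8104 and 7747 in the thoracic pool (1.25-fold, 0.32 ± 0.07), and did not pass the rule without the offset. Mgst1, a membrane-bound transferase that also reduces lipid hydroperoxides, had 6895 and 6714 in the arch pool, against 5302 and 5028 in the thoracic pool (1.32-fold, 0.40 ± 0.03). For the probes that stand for these 2 genes, the pools did not overlap. A further Mgst1 probe gave 0.25 on array 1 and 0.42 on array 2, and did not pass the 1.2-fold rule. The 7 other genes of the pi, theta, omega, kappa and zeta group ranged from -0.22 to 0.16 with a median of -0.02. The other microsomal transferases lay below 0. Mgst3, which was named after its value was seen, had signals of 494 and 497 in the arch pool, against 640 and 589 in the thoracic pool, and missed the 1.2-fold rule on array 2 (-0.31 ± 0.09). Its further probe passed the rule as lower (-0.40 ± 0.02), and Mgst3 was called lower without the offset, in the deposited log ratios and with the median over probes. The microsomal family therefore held its members on both sides of 0.

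Of the 6 glutathione peroxidases compared, Gpx3 and Gpx1 were higher in the arch. Gpx3, the secreted peroxidase of plasma, had signals of 1590 and 1624 in the arch pool, against 1087 and 935 in the thoracic pool (1.59-fold, 0.67 ± 0.17). The pools did not overlap, although the arrays disagreed in size more than for any other member named here as higher. Gpx1, the cytosolic selenoprotein that reduces hydrogen peroxide, had 22804 and 22770 in the arch pool, against 17679 and 17302 in the thoracic pool (1.30-fold, 0.38 ± 0.02). A further Gpx1 probe gave 0.13 on array 1 and 0.41 on array 2, and with the median over probes Gpx1 no longer passed the 1.2-fold rule. Gpx4, which reduces phospholipid hydroperoxides in membranes, had 7248 and 6194 in the arch pool, against 6744 and 6278 in the thoracic pool. Its pools overlapped, and its ratio of 0.04 ± 0.09 changed sign without loess. The other 3 peroxidases compared lay between -0.09 and -0.03.

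Of the superoxide dismutases, Sod3 alone passed the 1.2-fold rule. Sod3, the extracellular form, had signals of 269 and 274 in the arch pool, against 203 and 192 in the thoracic pool, with no overlap (1.38-fold, 0.46 ± 0.08). Sod2, the mitochondrial manganese enzyme, had 4223 and 4025 in the arch pool, against 3669 and 3729 in the thoracic pool (0.16 ± 0.07). Sod1, the cytosolic copper-zinc enzyme, had 25703 and 23709 in the arch pool, against 27406 and 27076 in the thoracic pool (-0.14 ± 0.07). The pools were apart for Sod2 and Sod1 but both stayed under 1.2-fold. The further Sod1 probes, both much dimmer, gave -0.05 and 0.02. Cat, the peroxisomal catalase, had 1856 and 1866 in the arch pool, against 1735 and 1656 in the thoracic pool (0.13 ± 0.05), also under 1.2-fold. Of the 3 secreted members compared, Gpx3 and Sod3 were thus higher and Gpx5, a dim probe with overlapping pools, was not (-0.03 ± 0.05).

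**Figure D2:**
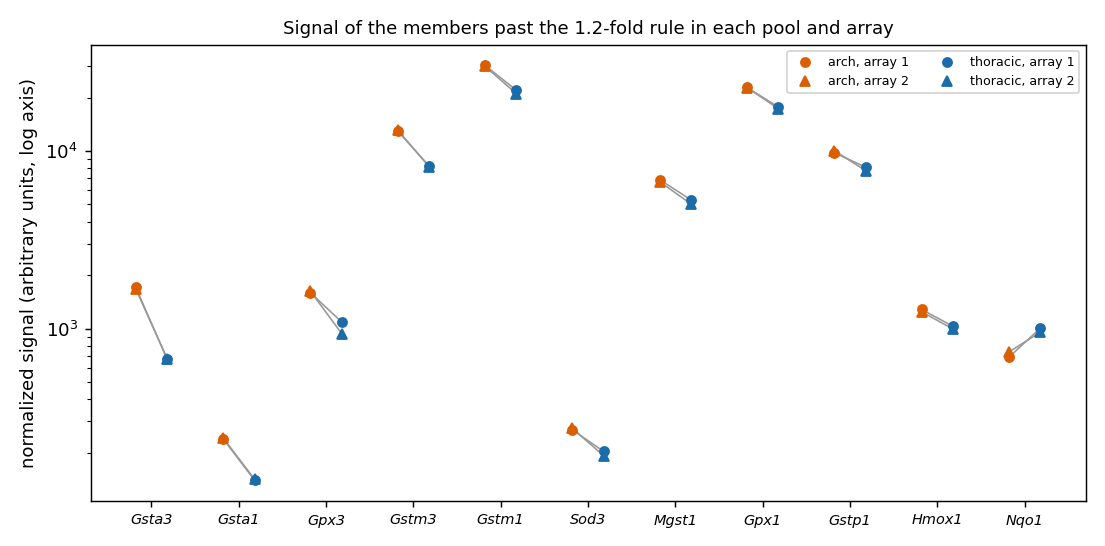
Normalized signal (vertical log axis, arbitrary units) of the 11 antioxidant genes past the 1.2-fold rule, with the arch pool in orange left of the thoracic pool in blue, circles for array 1 and triangles for array 2, and grey lines joining the pools of 1 array. Both arch values lie above both thoracic values for 10 genes, from Gsta3 to Hmox1, and below them for Nqo1.

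The NRF2-responsive enzymes Hmox1 and Nqo1 pointed in opposite directions. Hmox1, the inducible haem oxygenase that breaks down haem, had signals of 1282 and 1244 in the arch pool, against 1030 and 994 in the thoracic pool (1.25-fold, 0.32 ± 0.00). Nqo1, which reduces quinones, had 689 and 738 in the arch pool, against 1005 and 954 in the thoracic pool, a 1.37-fold lower signal in the arch (-0.46 ± 0.12). In both genes the pools did not overlap. Hmox2, the constitutive haem oxygenase, had 1490 and 1471 in the arch pool, against 1506 and 1420 in the thoracic pool, and its overlapping signals gave 0.02 ± 0.05.

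The genes that make and recycle glutathione all lay slightly above 0 and none reached 1.2-fold. Gclc, the catalytic subunit of the rate-limiting ligase, had 657 and 662 in the arch pool, against 602 and 598 in the thoracic pool (0.14 ± 0.01). Gclm, its modifier subunit, was at 134 and 133 in the arch pool, against 127 and 125 in the thoracic pool (0.08 ± 0.00). Their arch signals exceeded the thoracic signals on both arrays, by under 1.2-fold. Gsr, which reduces oxidised glutathione, gave 0.07 ± 0.00, and Gss, which adds glycine to complete the tripeptide, gave 0.03 ± 0.02. All 4 stayed above 0 in each of the scalings tried, although 1 of the further Gsr probes lay below 0 on both arrays (-0.08 ± 0.09). Among glutaredoxins, which remove glutathione from protein thiols, Glrx had a ratio of 0.13 ± 0.14, and the other 2 lay at -0.09 and 0.21.

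No peroxiredoxin passed the 1.2-fold rule in either direction. Prdx1, Prdx2 and Prdx5 lay at 0.11 ± 0.06, 0.07 ± 0.04 and 0.08 ± 0.04. The first and second are cytosolic and the last is found in several compartments, mitochondria included. Prdx3, the mitochondrial form, had 815 and 796 in the arch pool, against 931 and 843 in the thoracic pool (-0.14 ± 0.08). Prdx6, which uses glutathione to reduce phospholipid hydroperoxides, had 2965 and 3014 in the arch pool, against 3255 and 3376 in the thoracic pool (-0.15 ± 0.02). Prdx4, the form of the endoplasmic reticulum, had 5524 and 4946 in the arch pool, against 6322 and 6359 in the thoracic pool (-0.28 ± 0.12). For the probes that stand for these last 3 genes the arch values lay under the thoracic values. Prdx4 passed 1.2-fold on array 2 but not on array 1. The further Prdx6 probes, all dimmer, gave 0.02, -0.01 and -0.08.

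The thioredoxin branch hardly differed. Txn1, cytosolic thioredoxin, had 11211 and 11289 in the arch pool, against 9961 and 10807 in the thoracic pool, and its ratio of 0.12 ± 0.08 became -0.04 without loess. Txnrd1, its reductase, had 1089 and 1011 in the arch pool, against 882 and 909 in the thoracic pool, passing 1.2-fold on array 1 only (0.23 ± 0.11). Txnip, which binds and inhibits thioredoxin, had 4889 and 4736 in the arch pool, against 4082 and 3993 in the thoracic pool, just under the rule on both arrays (0.25 ± 0.01). Its further probe gave -0.01 ± 0.10, with opposite signs on the arrays. For the probes that stand for these 3 genes the pools were apart, by small margins. The mitochondrial pair, Txn2 and Txnrd2, lay at -0.01 ± 0.06 and -0.03 ± 0.08. Their further probes, all dimmer, gave 0.08 ± 0.07 for Txn2, and 0.10 ± 0.12 and 0.00 ± 0.06 for Txnrd2. Of the 13 thioredoxin-domain genes compared, 0 passed the rule, where 5.00% of all genes were higher and 2.75% lower. Of the 13, 11 lay below 0 (all 13 without loess), against 52.7% of all genes, and the median was -0.05.

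The members that work in oxidative protein folding in the endoplasmic reticulum, grouped after their values were seen, were Prdx4, Gpx7, Tmx1, Tmx3, Erp44, Pdia6, Txndc5 and Txndc11. Their median was -0.05, with 0 of 8 past the 1.2-fold rule, where 5.00% of all genes were higher and 2.75% lower. Gpx7, Pdia6, Txndc5 and Txndc11 had opposite signs on the 2 arrays. Tmx1, a thioredoxin-related protein of the endoplasmic reticulum membrane and the lowest of them, had 745 and 688 in the arch pool, against 894 and 896 in the thoracic pool (-0.32 ± 0.08). It missed the rule by a margin within the SD, at -0.26 on array 1. Tmx1 was called lower without the offset and in the deposited log ratios. Its further probe, which was dimmer, gave only -0.12 ± 0.13. Pdia6, an abundant disulphide isomerase, lay at 0.00 ± 0.08.

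**Figure D3:**
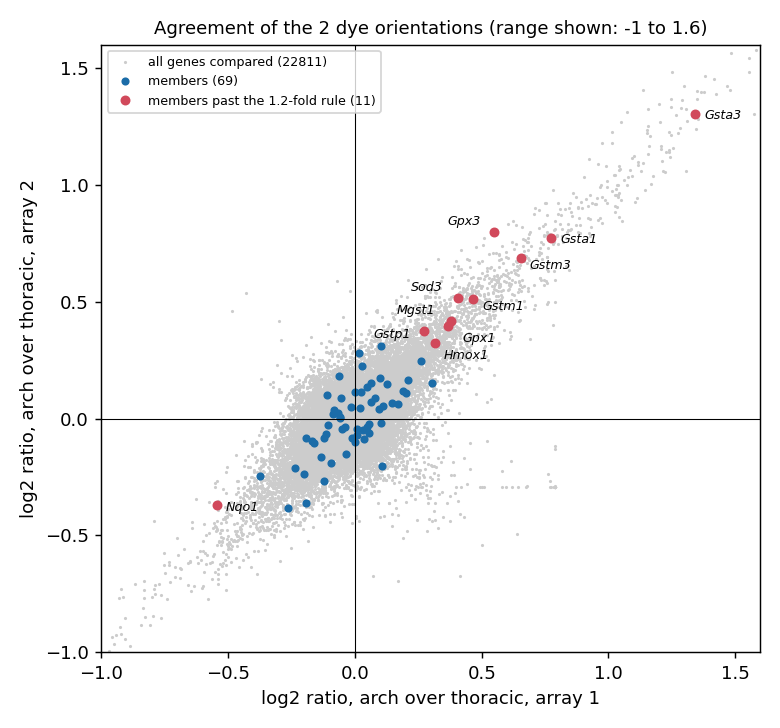
Log2 ratio of arch over thoracic on array 1 (horizontal axis, arch in Cy3) against array 2 (vertical axis, arch in Cy5), with all 22811 genes in grey, the 69 antioxidant genes in blue and the 11 past the 1.2-fold rule in red. The red points lie near the diagonal, with 10 at the upper right and Nqo1 at the lower left, and Gpx3 lies farthest off the diagonal among them. Genes beyond -1 or 1.6 are outside the range shown.

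The direction of a ratio was the same on both arrays for 50 of 69 members (72.5%, against 67.6% of all genes). Of the members, 26 had more than 1 well-measured probe, giving 37 further probes, whose ratios differed from the first probe's by a median of 0.06. The difference was over 1.5-fold only for Gsta1.

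Loess, which removes intensity-dependent dye bias, shifted the mean ratios of the bright members. Among the 22 members with a mean signal of 2000 or more, the ratio without loess was lower by 0.06 to 0.21 (median shift -0.12, against -0.10 over the 1870 genes of that brightness), while for the 47 dimmer members the median shift was 0.00. Without loess, 7 of the 10 higher members no longer passed the 1.2-fold rule, and Gsta3, Gsta1 and Sod3 did. Gstm1, for example, stood at -0.15 on array 1 and 0.70 on array 2 without loess, a mean of 0.28. Gpx3 stood at 0.24 and 1.04, a mean of 0.64. Hmox1 stood at 0.02 and 0.56, and Nqo1, which also no longer passed, at -0.81 and -0.14. For these dimmer genes (Gpx3, Hmox1 and Nqo1) the arrays moved apart while the means hardly shifted. Under that setting 2.59% of all genes passed the rule as higher and 1.06% as lower, and each of the 11 called members kept the sign of its mean.

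**Figure D4:**
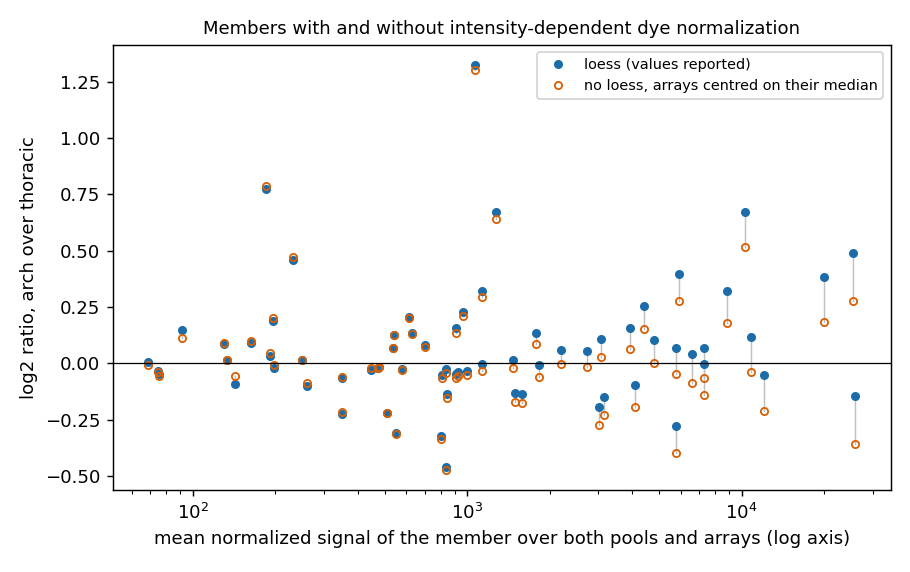
Log2 ratio of arch over thoracic (vertical axis) against the mean normalized signal over both pools and arrays (horizontal log axis) for the 69 antioxidant genes, with filled blue circles for loess-normalized values and open orange circles for arrays centred on their median only. The 22 genes with signals of 2000 or more move down by 0.06 to 0.21 without loess, and the dimmer genes hardly move.

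The antioxidant response element core was not limited to the members called higher. Of the members called higher, only Gsta3 and Mgst1 (GCACGGTCA, read on the minus strand, first base at -56) held it in the windows searched. Among genes above 0 but under 1.2-fold it was found in Gclm (GCACCGTCA at -134, minus strand) and Txnrd1 (GCTTTGTCA at -92, minus strand). The others of this kind were Prdx1 (GCTGAGTCA at -133, minus strand, overlapping an AP-1 site), Gstm5 and Gstm7. Among genes below 0 it was found in Tmx1 (-0.32), Sod1 (-0.14), Txndc11 (-0.05), Txndc2 (-0.05) and Txndc5 (-0.004). The AP-1 letters TGANTCA, searched on both strands, occurred in 6 of 61 members (9.84%), against 8.97% of all genes. A match describes these letters in a 300-base window and is not a measured binding site. Of the 72 members 61 had a window, and letters farther from the start were not searched, so a member without a match may still hold the core elsewhere.

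Genes around the antioxidant enzymes gave small differences as well. Of 11 genes of NRF2 control, 2 were higher and 0 were lower, against 5.00% and 2.75% of all genes, and the median was 0.15. Nfe2l2, which encodes NRF2, had 3854 and 3986 in the arch pool, against 3131 and 3255 in the thoracic pool (0.30 ± 0.01), and the small Maf partner Maff gave 0.36 ± 0.02. Keap1, which targets NRF2 for degradation, and the repressor Bach1 lay at 0.32 ± 0.08 and 0.27 ± 0.02 and each missed the rule on 1 array. The ratio of the dim Bach1 probe was 0.53 without the offset and 0.57 in the deposited log ratios. Of 14 NADPH-supplying genes, 0 passed in either direction, with a median of 0.07. The 4 of largest size were malic enzyme Me1 at -0.23 ± 0.02 and the pentose phosphate enzymes Tkt, Taldo1 and G6pdx at 0.20 ± 0.08, 0.19 ± 0.05 and 0.17 ± 0.10.

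Of 21 genes of glutathione precursors and turnover, 1 was higher and 1 was lower, with a median of 0.02. Over all genes 5.00% were higher and 2.75% lower, so 1 of 21 is near these shares. Anpep, an aminopeptidase that cleaves the cysteinylglycine left by glutathione breakdown, was the higher one (0.37 ± 0.03), and Ggt5, a gamma-glutamyl transferase, the lower one (-0.35 ± 0.02). Cth, which makes cysteine, and Hagh, a glyoxalase, lay at -0.33 ± 0.16 and -0.31 ± 0.09. The Cth probe was dim, at 84.1 and 79.0 in the arch pool, against 97.6 and 107 in the thoracic pool. Its ratio was -0.73 without the offset and -0.96 in the deposited log ratios. Of 17 genes of selenoproteins and methionine sulfoxide repair, 1 was higher, Selenon (0.42 ± 0.12), and 0 were lower, with a median of 0.12.

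Haem and iron genes differed in both directions, with 4 of 14 higher, 1 lower and a median of -0.01. Over all genes 5.00% were higher and 2.75% lower. Slc40a1, the iron exporter ferroportin, had 356 and 317 in the arch pool, against 210 and 196 in the thoracic pool (0.73 ± 0.05). Cp, the ferroxidase ceruloplasmin, and the transferrin receptor Tfrc were also higher (0.50 ± 0.06 and 0.44 ± 0.05), and haptoglobin, Hp, was lower (-0.52 ± 0.12). The ratio of the dim Tfrc probe was 0.76 without the offset and 0.84 in the deposited log ratios. Of 25 detoxification and other redox genes, 5 were higher and 0 were lower, with a median of 0.12. Among these were retinal dehydrogenase Aldh1a1 (0.51 ± 0.01), the metallothioneins Mt1 and Mt2 (0.46 ± 0.06 and 0.46 ± 0.07) and aldo-keto reductase Akr1b8 (0.40 ± 0.01).

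Markers of other cell types differed between the pools alongside the higher antioxidant genes, and fewer cells of a type cannot be told apart from less RNA per cell. Of 18 macrophage markers, 9 were higher by the 1.2-fold rule and 0 were lower, against 5.00% and 2.75% of all genes. The summed signal of the macrophage markers was 60052 to 60646 in the arch pool, against 29118 to 29675 in the thoracic pool. All 11 mesothelial markers were higher (9719 to 10134 in the arch pool, against 3643 to 3740 in the thoracic pool). Higher ones also numbered 7 of 15 endothelial markers (4287 to 4364 in the arch pool, against 3024 to 3056 in the thoracic pool) and 6 of 10 brown fat markers (18772 to 19723 in the arch pool, against 12268 to 12494 in the thoracic pool). Of 12 adventitial fibroblast markers 5 were higher (124113 to 129125 in the arch pool, against 98100 to 98176 in the thoracic pool). For heart muscle 6 of 16 were higher and 1 was lower (29490 to 32346 in the arch pool, against 22541 to 24278 in the thoracic pool). These sums leave out saturated probes, and 0 of the named lists had a marker below background in the arch pool. Their part in the antioxidant differences was not tested.

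Smooth muscle markers, the tissue's labelled cell type, were bright in both pools. Of these 14, 1 was higher and 1 lower, against 5.00% and 2.75% of all genes, and 3 were saturated. Their summed signal, with the saturated probes left out, was 112071 to 114004 in the arch pool, against 113768 to 114869 in the thoracic pool. Over all 14 the median log2 ratio was 0.17, and 10 lay above 0, against 47.3% of all genes. Of 10 adipocyte markers 0 were higher and 1 was lower, and of 5 erythroid markers compared 0 were higher and 1 was lower. Apoe gave signals of 426 and 402 in the arch pool, against 363 and 391 in the thoracic pool. Since both pools are apoE-/- and the place of this probe relative to the deletion is unknown, it does not check the genotype. Across arrays and dyes, 76.5% to 82.6% of gene spots were well above background, and median signals were 132 to 142, against means of 77.0 to 97.1 for negative controls.

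**Figure D5:**
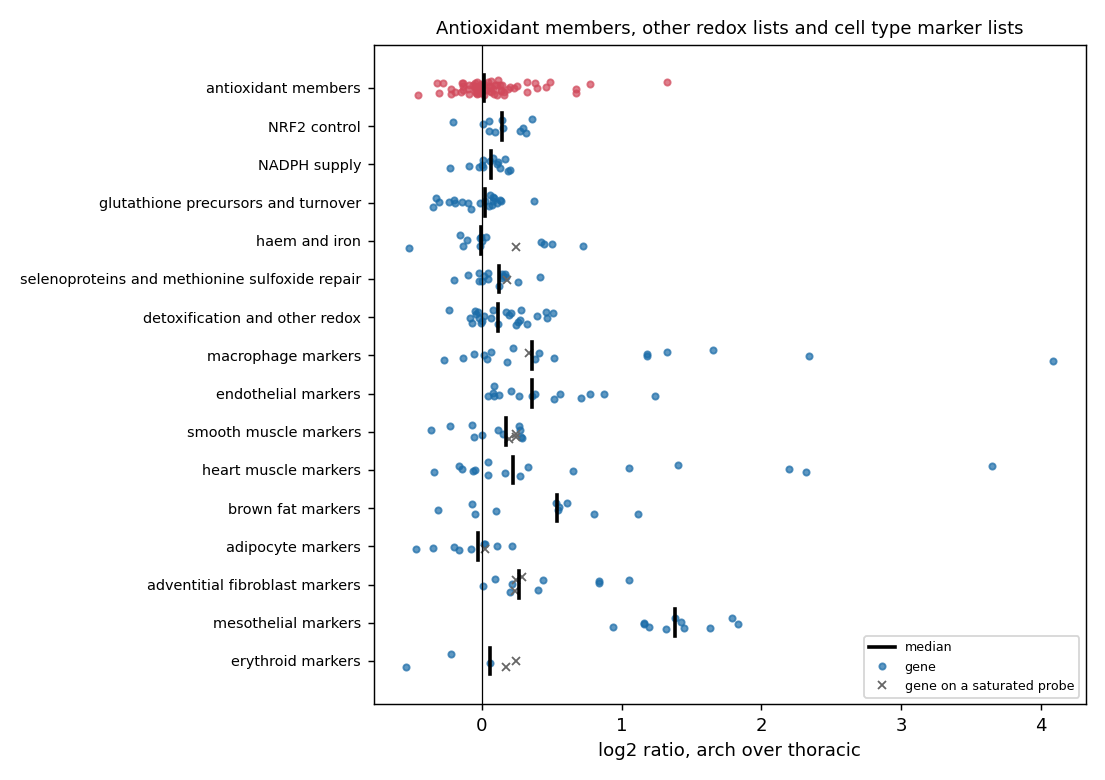
Log2 ratio of arch over thoracic (horizontal axis) for the 69 antioxidant genes in red and for genes of redox pathway and cell type marker lists in blue, 1 point per gene, with crosses for genes on saturated probes and black bars for list medians. The antioxidant genes are centred at 0.02, the NRF2 control list at 0.15, the macrophage and endothelial markers at 0.36 each and the mesothelial markers at 1.38.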

How the data were processed

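Both dual-colour Agilent mouse arrays carry the same 2 RNA pools with the dyes exchanged and count as 1 replicate. The deposited scanner tables hold intensity values (mean signals and median local backgrounds), written by version 8.1.1.1 of Agilent's Feature Extraction software per the file headers. The submitters' processing notes give its version as 9.1.1.1. The deposited log ratio, and the table of the whole series, are log10 values of processed signals by the authors and served as alternatives.

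With limma 3.58.1 in R 4.3.3, background was corrected by normexp (offset 50) and loess was applied within each array, giving control spots a weight of 0. Outlier spots (8 and 5) were left out, spots of a probe averaged, array 1 turned to arch over thoracic and the arrays averaged. Signals per pool come from the same values after quantile normalization of average intensity. A gene was compared where a probe was well above background in the same RNA on both arrays, and its brightest such probe stood for it, so a member could pass through 1 pool alone. Names were updated through RefSeq (GRCm38.p6): of 113 member probes 101 matched by accession, 9 by symbol and 3 by synonym. For the probes no genome build was given in the sources used here.

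Members and lists were chosen with earlier results of these data known. Named are all members past the 1.2-fold rule, the central enzymes of each branch (superoxide dismutases, catalase, Gpx1, Gpx3, Gpx4, glutathione synthesis and reduction, haem oxygenases, Nqo1, thioredoxins, Txnrd1, Txnrd2, Txnip, Glrx and Prdx1 to Prdx6) and up to 4 genes of each redox list. A further probe is named where it differs by over 1.5-fold, or by over 1.2-fold in the opposite direction. Further probes of Gsta3, Gpx1, Mgst1, Mgst3, Sod1, Prdx6, Tmx1, Txnip, Txn2, Txnrd2 and Gsr were added after their values were seen. With 1 pool per segment no test was possible, and the number of arrays limits the precision. The steps were tested on simulated arrays, and 11 alternatives were tried.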

Additional observations from a re-analysis of the deposited data

How the results depend on the processing

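Of 11 alternatives, none turned the direction of a called member, but several could not have done so. A called member has the same direction on both arrays by the rule, so leaving out an array cannot turn it. The settings on dim and saturated probes left the values of called members unchanged, and the series table repeats the deposited log ratios. Gsta1 also passed the 2-fold rule without the offset, in the deposited log ratios and in the series table (2 members higher in each, against 1). In these settings 0.859%, 1.02% and 1.02% of all genes were higher by that rule. Without loess, 2 members passed the 1.5-fold rule as higher (against 4), where 1.30% of all genes did. By the 1.2-fold rule 3 were higher (against 10) and 0 lower (against 1), where 2.59% and 1.06% of all genes were. The median log2 ratio in that setting was -0.019 (against 0.017). The 1.2-fold rule called 3 members lower without the offset, 4 in the deposited log ratios, 4 in the series table and 2 with the median over probes, where 4.80%, 5.37%, 5.37% and 2.20% of all genes were lower. The median log2 ratio was 0.033 in the deposited log ratios and in the series table. Leaving out an array gave 2 (without array 2) to 4 (without array 1) members lower by the 1.2-fold rule, and medians of 0.025 (without array 2) to 0.041 (without array 1). Members above 0 numbered 29 to 41 over all alternatives. Values of named genes moved by over the SD between arrays in 44 cases and by less in 308. Many of the 308 could not have moved further. Leaving out 1 array always shifts a mean by less than this SD, and the settings on dim and saturated probes returned the same values. The 308 are therefore no measure of how stable the values are. No paired analysis was possible because both arrays carry the same 2 pools and each segment has 1 pool. The offset and the low signal over background draw the ratios of dim members, such as Gsta2 and Gclm, towards 0.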

Other observations

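Some genes of the same families carry other names in the scanner tables and so are not among the 69. Gpx8, a peroxidase of the endoplasmic reticulum membrane, had signals of 8363 and 8151 in the arch pool, against 10734 and 11355 in the thoracic pool, and was 1.34-fold lower in the arch (-0.42 ± 0.08), past the 1.2-fold rule on both arrays. Srxn1, which restores overoxidised peroxiredoxins, had 874 and 834 in the arch pool, against 772 and 773 in the thoracic pool (0.14 ± 0.05). Glrx5, a mitochondrial glutaredoxin of iron-sulphur cluster assembly, lay at 0.06 ± 0.02. Txndc12, Txndc15 and Txndc16 lay at 0.08 ± 0.03, -0.15 ± 0.01 and 0.09 ± 0.02. The brightest probe of Txnl4a lies outside the list under another name and gave 0.09 ± 0.08, against -0.03 ± 0.09 for the probe in the list. These genes were chosen after their values were seen.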
